A study of Mus musculus with 16 samples.

Results

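Immediate early genes are transcribed within minutes of a stimulus without new protein synthesis, and in neurons their transcripts track recent synaptic activity. Calcium and kinase signals act on transcription factors already in the nucleus, among them CREB, which binds the cyclic AMP response element (CRE), and serum response factor, which binds the CArG box. Their transcripts are short-lived, so a level in whole tissue reflects the state of the cells shortly before collection. The 10 genes described here were taken by name: Fos, Fosb, Junb, Egr1, Egr2, Egr4, Arc, Npas4, Nr4a1 and Dusp1. All 10 were found by Ensembl identifier among 49671 gene rows, and all 10 passed the filter on low counts that kept 18875 genes.

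The libraries were made from the whole brain of C57BL/6 mice, with 1 mouse per library and 4 mice in each of 4 groups. Pregnant mice had received an intraperitoneal injection of lipopolysaccharide (LPS, a bacterial cell wall component that sets off innate immunity) or saline on gestational day 16, their male offspring were injected with LPS or saline on postnatal day 30, and the offspring's brains were collected on postnatal day 32, 2 days after the second injection. The groups were LPS-LPS (LPS on both occasions), LPS-saline (prenatal LPS, pubertal saline), saline-LPS (prenatal saline, pubertal LPS) and saline-saline. The labels do not spell out the order of the 2 words in a group name, and it was read as prenatal then pubertal. Neither litters nor doses were stated, so the p-values describe the spread between individual mice and not between litters.

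Reads assigned to genes ranged from 25729919 to 38571036 per library (median 31810757). A single read therefore stood for at most 0.0389 CPM (the read count scaled to library size), and the lowest count of any of the 10 genes in any library was 223, for Egr2 in saline-saline replicate 4. The libraries differed in cerebellar transcripts: Gabra6, a GABA-A receptor subunit of cerebellar granule neurons, was under 1 CPM in 8 libraries. These were LPS-LPS replicate 2, replicates 1 and 2 of LPS-saline and of saline-LPS, and replicates 1, 2 and 3 of saline-saline. The remaining 8 libraries had 2.51 to 70.4 CPM of it. The summed level of the 11 cerebellar granule markers was 199 to 221 CPM in the 8 libraries low in Gabra6 and 227 to 786 CPM in the other 8, and only Gabra6 was at 0 in any library, saline-LPS replicate 1. Markers of cerebral cortex and hippocampus were abundant in all 16 libraries, with 10 of 10 tested and a summed level of 3438 to 4514 CPM. LPS-LPS replicate 3, labelled male, had 503 CPM of Xist, the non-coding RNA that silences an X chromosome in females, and 0 reads of the Y-linked Ddx3y, whereas the other 15 libraries had at most 0.276 CPM of Xist and at least 35.6 CPM of Ddx3y.

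The 250 bases before the transcription start were searched for the letters of elements such as the CRE and the CArG box. They were read from RefSeq's promoter table for GRCm38.p6, which held 8 of the 10 genes (not Egr1 or Arc). The windows printed here are those of Fos (chr12:85473640-85473889, plus strand), Junb (chr8:84978749-84978998, minus strand), Egr2 (chr10:67537619-67537868, plus strand, 1 of 5 entries), Nr4a1 (chr15:101266596-101266845, plus strand) and Egr4 (chr6:85513590-85513839, minus strand), chosen because these genes gave the closest correlations or, for Egr4, the smallest p. None of these 5 windows overlapped an annotated exon in GENCODE M21. Each is written 5′ to 3′ on the gene's own strand, with the CRE core (TGACG, or CGTCA when read on the opposite strand) and CArG boxes in capitals.
Fos: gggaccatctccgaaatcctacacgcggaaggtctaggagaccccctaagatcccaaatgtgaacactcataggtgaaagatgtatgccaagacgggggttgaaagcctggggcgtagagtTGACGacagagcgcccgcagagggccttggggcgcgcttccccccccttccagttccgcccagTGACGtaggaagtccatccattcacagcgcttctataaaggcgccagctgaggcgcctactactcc
Junb: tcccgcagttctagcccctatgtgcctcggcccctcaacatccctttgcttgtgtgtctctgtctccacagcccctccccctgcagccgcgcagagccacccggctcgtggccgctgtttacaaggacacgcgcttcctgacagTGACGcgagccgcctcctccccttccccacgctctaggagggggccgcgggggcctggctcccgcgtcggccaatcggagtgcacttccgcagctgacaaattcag
Egr2: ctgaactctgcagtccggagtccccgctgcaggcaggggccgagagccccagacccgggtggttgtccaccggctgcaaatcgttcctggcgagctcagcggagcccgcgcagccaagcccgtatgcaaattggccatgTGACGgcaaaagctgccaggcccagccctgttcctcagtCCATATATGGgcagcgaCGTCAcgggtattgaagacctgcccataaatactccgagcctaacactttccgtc
Nr4a1: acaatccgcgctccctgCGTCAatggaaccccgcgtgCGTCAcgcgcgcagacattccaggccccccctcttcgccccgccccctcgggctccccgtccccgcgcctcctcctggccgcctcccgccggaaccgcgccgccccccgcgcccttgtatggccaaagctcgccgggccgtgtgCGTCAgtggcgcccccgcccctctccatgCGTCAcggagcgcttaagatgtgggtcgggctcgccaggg
Egr4: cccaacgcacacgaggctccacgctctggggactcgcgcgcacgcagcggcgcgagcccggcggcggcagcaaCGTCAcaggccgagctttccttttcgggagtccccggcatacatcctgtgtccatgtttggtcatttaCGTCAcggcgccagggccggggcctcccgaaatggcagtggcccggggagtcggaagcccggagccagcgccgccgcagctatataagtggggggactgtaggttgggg
For Dusp1, the 30 bases around its full CRE (chr17:26508597-26508626, minus strand) are shown with the CRE in capitals.
Dusp1: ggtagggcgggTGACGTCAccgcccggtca

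The letters TGACG, searched on both strands, occurred in the windows of all 8 genes with an entry. The same letters occurred in 17.8% of the 32851 promoter windows of the table. Here and below that share is per window, whereas a gene counted if any of its windows matched, and Egr2 had several. Nr4a1 held 4 such matches, with the nearest to the start at -40 to -36 counted back from the first transcribed base, and Fos held 2, at -129 to -125 and -66 to -62. The full CRE, TGACGTCA, which contains the core on both strands, was found in Dusp1 alone of the 8, at -143 to -136, and in 1.55% of all windows. A CArG box was found in Egr2 alone of the 8, at -72 to -63 in the printed window, and in 1.47% of all windows. The EGR site was found in Fosb and Nr4a1 and in 3.06% of all windows, TATAAA in Fos and in 12.4%, and the AP-1 letters TGAGTCA in none of the 8 and in 4.46%. These are matches of letters in a fixed window, and no binding was measured. Sites outside the window were not searched, and a link between these letters and the correlations below was not tested. In GENCODE M21 all 250 bases of the Npas4 window were exonic, as were 47 bases for Dusp1 and 6 for Fosb. Other Egr2 entries had up to 61 exonic bases.

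The 10 genes were all expressed, at levels that differed widely among them. Divided by exonic length so that genes can be compared, the mean over 16 libraries was highest for Egr1 (74.1 ± 12.9 CPM per kilobase, SD, n = 16), a zinc finger transcription factor with high baseline expression in forebrain neurons. Arc, whose protein acts at synapses and in removing AMPA receptors from them, followed at 72.5 ± 23.9 CPM per kilobase. Junb, an AP-1 partner of Fos, had 48.7 ± 11.6 and Nr4a1, an orphan nuclear receptor, 45.7 ± 12.4 CPM per kilobase. These neighbours did not differ beyond the spread of their own libraries: Egr1 and Arc overlapped, and so did Junb and Nr4a1. Egr4, a zinc finger factor of the Egr family, came next with 35.3 ± 6.79 CPM per kilobase. Fos, the AP-1 subunit most used to mark active neurons, had 16.8 ± 3.86 CPM per kilobase. Dusp1, a phosphatase that switches off MAP kinases, had 15.6 ± 4.17 CPM per kilobase, so that Fos and Dusp1 also overlapped. Npas4, a transcription factor induced selectively by neuronal depolarization, had 6.55 ± 2.92 CPM per kilobase. Egr2, which is induced in neurons and is also needed for Schwann cell myelination, had 4.73 ± 1.21 CPM per kilobase, and Fosb, an AP-1 subunit whose truncated form accumulates with repeated stimulation, had 3.31 ± 0.615 CPM per kilobase, the lowest of the 10.

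None of the 10 genes passed the test for prenatal LPS. Egr4, the member with the smallest p, had 83.9, 75.2, 76.6 and 90.2 CPM in LPS-LPS brains and 91.0, 112, 78.0 and 59.5 CPM in LPS-saline brains, against 74.0, 80.5, 66.5 and 62.8 CPM in saline-LPS brains and 72.7, 69.3, 72.5 and 48.2 CPM in saline-saline brains. Most libraries with prenatal LPS were above most without it, but the ranges overlapped, with LPS-saline replicate 4 low. Averaged over the pubertal treatment, Egr4 had a log2 fold change of 0.29 ± 0.12 (SE) for prenatal LPS against prenatal saline, which did not pass the threshold (adjusted p = 0.160, edgeR quasi-likelihood test with Benjamini-Hochberg adjustment over 18875 genes). In that comparison 0 of the 10 genes were called, beside 7.82% of all tested genes (1476 genes), and 1 of the 10, Egr4, had an unadjusted p under 0.05, beside 23.2% of all tested genes. With the cerebellar granule level as a covariate, the change of Egr4 was 0.31 and passed (adjusted p = 0.0244), and without LPS-saline replicate 4 it was 0.36 and passed (adjusted p = 0.0343). After correction for GC content and length it was 0.10 (adjusted p = 0.660). Egr4 has the highest exonic GC fraction of the 10 genes, 0.68, and the shortest exonic length, 2148 bases. The libraries' deviations from the overall mean correlated with exonic length across genes at a Spearman rho of -0.27 to -0.14 in LPS-LPS, -0.17 to -0.013 in LPS-saline, -0.054 to 0.17 in saline-LPS and 0.077 to 0.19 in saline-saline libraries. A correlation with GC content is not given here, and the separate parts of GC content and length in the value of Egr4 were not tested. The summed level of the 10 cortex and hippocampus markers was 4133 to 4514 CPM in LPS-LPS, 3695 to 4483 CPM in LPS-saline, 3479 to 4279 CPM in saline-LPS and 3438 to 3882 CPM in saline-saline libraries, and its part in the value of Egr4 was not tested.

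The other 9 genes had log2 fold changes between -0.10 (Egr1) and 0.44 (Npas4) for prenatal LPS averaged over pubertal treatment. The median over the 10 genes was -0.02, beside -0.01 over all tested genes. Npas4 had the widest interval. It had 24.5, 29.3, 39.9 and 29.1 CPM in LPS-LPS brains and 49.6, 43.9, 20.9 and 11.4 CPM in LPS-saline brains, against 19.9, 31.3, 14.3 and 15.0 CPM in saline-LPS brains and 40.1, 34.9, 12.8 and 16.3 CPM in saline-saline brains. The LPS-saline group held both the highest and the lowest of the 16 libraries. Its log2 fold change of 0.44 ± 0.34 (SE) did not pass edgeR's test (adjusted p = 0.485), and the 95% confidence interval ran from 0.817-fold to 2.27-fold.

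Split by pubertal treatment, the prenatal comparisons also gave 0 calls among the 10 genes. For LPS-saline against saline-saline brains the background was 0.18% of tested genes (34 genes, or 409 with replicate number as a block). For LPS-LPS against saline-LPS brains the background was 0.609% (115 genes, or 326 with the block). In the first comparison 9 of the 10 genes lay above 0, with log2 fold changes of -0.05 to 0.38, and in the second 4 of 10, with -0.31 to 0.61. Of all 18875 tested genes 9303 and 9128 lay above 0. The 10 genes varied together among mice, so their signs are not separate results. At an unadjusted p under 0.05 the 10 genes gave 1 (Egr4, log2 fold change 0.38, adjusted p = 0.355 by edgeR) and 0, while 13.2% and 14.0% of all tested genes passed that limit. Without LPS-saline replicate 2 the change of Egr4 in LPS-saline against saline-saline brains was 0.21 (adjusted p = 0.631 by edgeR).

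Mice that met LPS on both occasions were also compared with mice that met none. For LPS-LPS against saline-saline brains 0 of the 10 genes were called, beside 6.56% of all tested genes (1238 genes, 4.27% higher and 2.29% lower), with log2 fold changes of -0.25 (Arc) to 0.31 (Egr4). Of the 10 genes 1, Egr4, had groups that did not overlap, at 75.2 to 90.2 CPM in LPS-LPS brains and 48.2 to 72.7 CPM in saline-saline brains, beside 17.4% of all tested genes whose groups did not overlap. It did not pass edgeR's test (0.31 ± 0.17 SE, adjusted p = 0.311), though it did with the cerebellar granule covariate (0.39, adjusted p = 0.0490), and with the GC and length correction its value was 0.06. Without saline-saline replicate 4 the change was 0.18 (adjusted p = 0.577 by edgeR).

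None of the 10 genes passed the test for pubertal LPS, given 2 days before collection. Arc had 201, 174, 169.7 and 199 CPM in LPS-LPS brains and 296, 219.8, 223 and 182 CPM in saline-LPS brains, against 333, 365, 182 and 116 CPM in LPS-saline brains and 271, 283, 234 and 98.9 CPM in saline-saline brains. The highest and the lowest library of Arc were both in groups that received pubertal saline. Its log2 fold change for pubertal LPS averaged over prenatal treatment was -0.18 ± 0.26 (SE, adjusted p = 0.991, edgeR), with a 95% interval from 0.597-fold to 1.30-fold. Over the 10 genes the averaged values ran from -0.21 (Npas4) to 0.02 (Egr4), and the intervals reached from 0.520-fold to 1.44-fold. By edgeR 0 of the 10 genes and 0% of all tested genes were called in the averaged comparison, in the comparison after prenatal saline and in the comparison after prenatal LPS. At an unadjusted p under 0.05 there were 0 of the 10 genes in each, and 947, 535 and 756 of all tested genes. DESeq2 called 0 of the 10 genes in all 8 comparisons, and 0, 0 and 9 of all genes in these 3. After prenatal LPS (LPS-LPS against LPS-saline) all 10 genes lay below 0, at -0.42 to -0.04 on the log2 scale. After prenatal saline (saline-LPS against saline-saline) 7 lay above 0, at -0.38 to 0.19. Of all 18875 tested genes 9310 and 9631 lay above 0 in these comparisons. Because the 10 genes varied together among mice, their signs are not separate results. The difference between these 2 pubertal effects, the interaction, was called for 0 of the 10 genes and for 0% of all tested genes (402 genes and 0 of the 10 at an unadjusted p under 0.05 by edgeR, 1 gene outside the 10 called by DESeq2). Its values ran from -0.48 (Arc) to 0.34 (Npas4), with standard errors of 0.24 to 0.68.

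**Figure D1:**
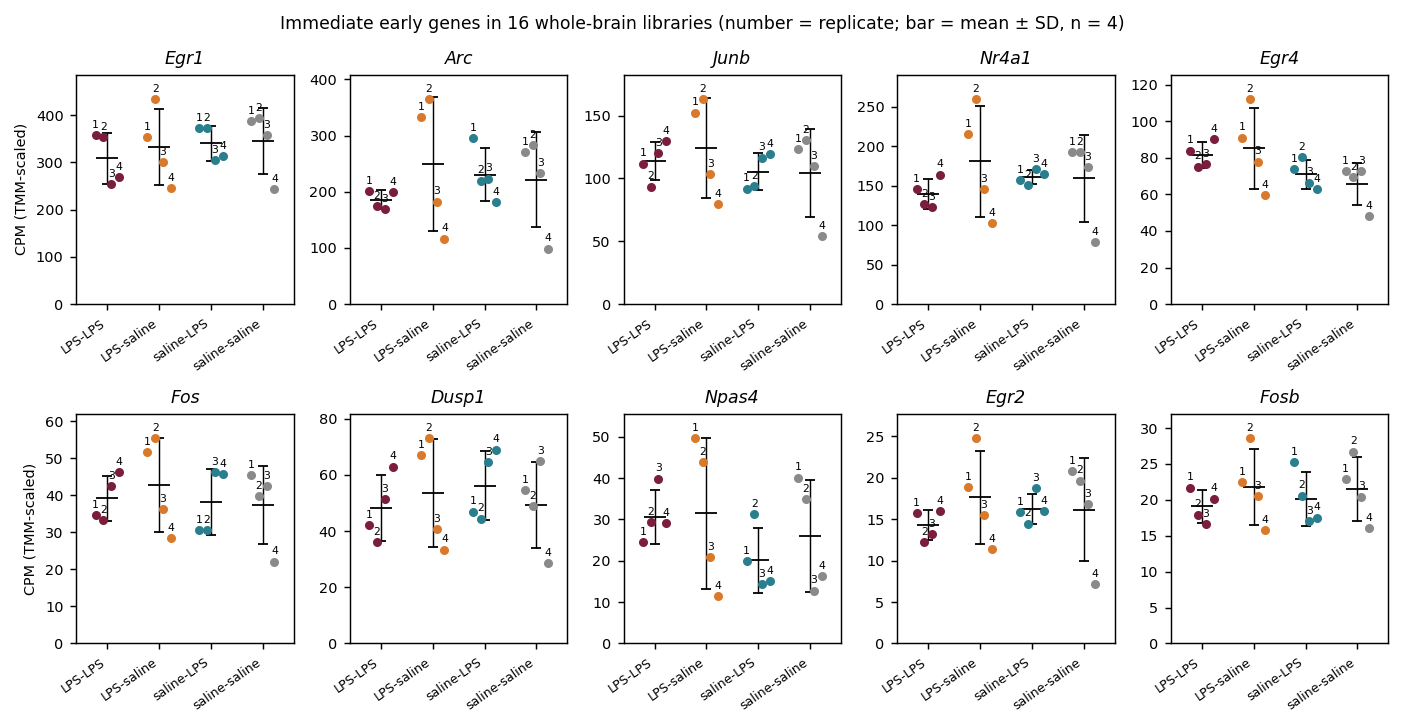
CPM of the 10 genes in each of 16 whole-brain libraries, by group on the x axis, with the replicate number above each point and the mean ± SD (n = 4) as a black bar; every y axis starts at 0. The LPS-saline and saline-saline groups spread the most, with LPS-saline replicate 2 highest for 9 of the 10 genes and saline-saline replicate 4 lowest for 8.

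**Figure D2:**
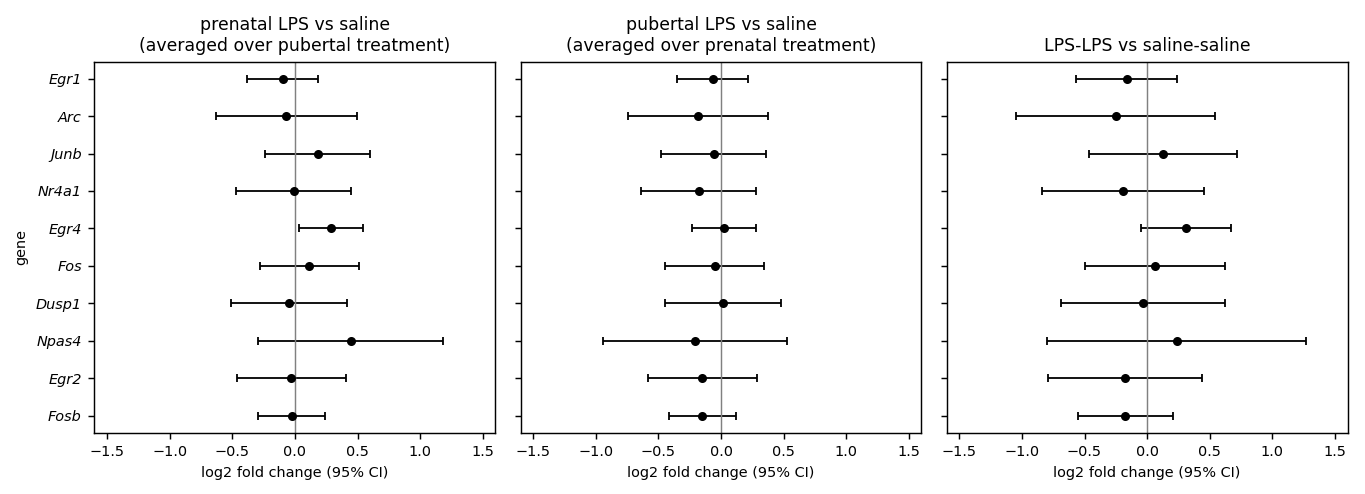
Log2 fold changes (x axis) of the 10 genes (y axis) from edgeR, with 95% confidence intervals as bars, for prenatal LPS against prenatal saline, for pubertal LPS against pubertal saline and for LPS-LPS against saline-saline. All intervals include 0 except that of Egr4 for prenatal LPS (0.03 to 0.54), which did not pass after adjustment.

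The 10 genes spread widely among mice of the same group. The SD of log2 CPM around the group means was 0.70 for Npas4, 0.55 for Arc, 0.45 for Nr4a1, 0.44 for both Egr2 and Dusp1, 0.41 for Junb, 0.39 for Fos, 0.28 for both Egr1 and Fosb, and 0.26 for Egr4. The median over all tested genes was 0.16. Among the 1887 or 1888 tested genes of similar mean expression, each of the 10 lay between the 97.2nd and the 99.9th percentile. The ratio of the highest to the lowest of the 16 libraries was 4.35 for Npas4, 3.69 for Arc and 1.78 for Egr1. The share of each gene's variance that lay between the 4 groups had a median of 6.83% over the 10 genes, beside 21.1% over all tested genes, and was highest for Egr4 at 29.9%. In bulk tissue fewer cells that express a gene and less RNA in each of them cannot be told apart.

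The spread had a shared pattern over libraries. Fos had 34.8, 33.4, 42.4 and 46.2 CPM in LPS-LPS brains, 51.6, 55.4, 36.2 and 28.4 CPM in LPS-saline brains, 30.6, 30.6, 46.3 and 45.7 CPM in saline-LPS brains, and 45.5, 39.9, 42.5 and 22.1 CPM in saline-saline brains. Dusp1, whose protein limits the kinase signal that induces Fos, had 42.2, 36.1, 51.5 and 63.0 CPM in LPS-LPS brains, 67.0, 73.0, 40.8 and 33.5 CPM in LPS-saline brains, 46.9, 44.5, 64.5 and 69.0 CPM in saline-LPS brains, and 54.7, 49.0, 64.8 and 28.5 CPM in saline-saline brains. Both genes were high in LPS-saline replicates 1 and 2 and in saline-LPS replicates 3 and 4, and both were lowest in saline-saline replicate 4. Egr1 had 357, 354, 254 and 269 CPM in LPS-LPS brains, 354, 434, 300.4 and 246 CPM in LPS-saline brains, 373, 372, 305 and 313 CPM in saline-LPS brains, and 387, 395, 358 and 244 CPM in saline-saline brains. Within the LPS-LPS and saline-LPS groups Egr1 was therefore higher in replicates 1 and 2, where Fos and Dusp1 were lower.

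All 10 genes were above their group means in LPS-saline replicates 1 and 2 and in saline-saline replicates 1 and 2, and all 10 were below them in LPS-saline replicates 3 and 4 and saline-saline replicate 4. Averaged over the 10 genes, LPS-saline replicate 2 was 0.52 above and LPS-saline replicate 4 was at -0.65 relative to its group mean on the log2 scale, and saline-saline replicate 4 was at -0.72. The 4 LPS-LPS libraries lay between -0.13 and 0.14 and the 4 saline-LPS libraries between -0.03 and 0.02. LPS-saline replicate 4 was also the smallest library, with 25729919 reads, and its Gabra6 level of 52.7 CPM and that of saline-saline replicate 4, 44.4 CPM, were the highest of their groups. Correlations of Fos, Arc and Dusp1 with the library's gene total, and correlations with the cerebellar level removed, are given below.

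**Figure D3:**
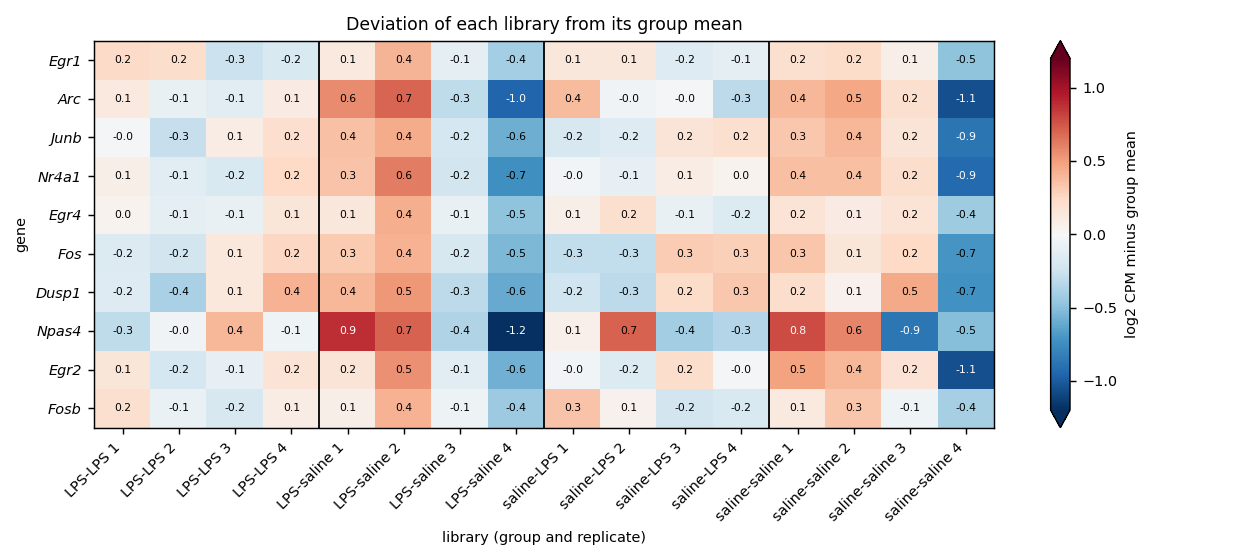
Log2 CPM minus the group mean for the 10 genes (rows) in the 16 libraries (columns, in groups of 4), from blue (below the group mean) to red (above), with the value in each cell. Whole columns share a sign in LPS-saline and, except for replicate 3, in saline-saline. All 10 genes are above in replicates 1 and 2 of both groups, and all 10 are below in replicate 4 of both.

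The 10 genes varied together among mice of the same group. All 45 pairs had a positive correlation of their deviations from the group means over the 16 libraries, with a median Pearson r of 0.78 (range 0.38 to 0.97) and a median Spearman rho of 0.66. Of the 45 pairs, 29 passed a two-sided permutation test within groups (100000 permutations, Benjamini-Hochberg adjustment over 45 pairs), or 23 by Spearman's rho. For scale, the median r over all pairs of tested genes was about 0, and 1.03% of them reached the median of the 10 genes. The closest pair was Egr2 with Nr4a1 (r = 0.97, rho = 0.95, adjusted permutation p = 0.0009). Fos with Dusp1 followed (r = 0.97, rho = 0.88, adjusted permutation p = 0.0012), and then Junb with Nr4a1 and Fos with Junb (r = 0.95 for both, adjusted permutation p = 0.00225 for both).

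The correlation leaned on a few mice. With LPS-saline replicate 4 and saline-saline replicate 4 both left out, 6 of the 45 pairs passed and the median r was 0.47. Without saline-saline replicate 4 alone 18 pairs passed. Leaving out, for each pair, the 2 libraries farthest from the median of its first gene gave a median r of 0.62 and a range from -0.09 to 0.94. The closest pairs kept a high r under that omission, with 0.93 for Egr2 and Nr4a1 and 0.94 for Fos and Dusp1, whereas Fos with Fosb went to -0.06, Fos with Egr1 to -0.08 and Egr1 with Dusp1 to -0.09, so any relation in those 3 pairs rested on the omitted libraries. Within the 8 libraries low in Gabra6 the median r was 0.60, within the other 8 it was 0.79, and all 45 pairs stayed above 0 in both. These values used deviations from the means of the whole groups, so differences between the 2 sets can enter them. With the cerebellar granule level removed from each gene the median r was 0.70 and 27 pairs passed.

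Within the shared pattern the genes formed a graded order. The first principal component of the deviations held 77.7% of the variance, with loadings of the same sign for all 10 genes. The second held 13.0% and set Dusp1, Fos, Junb, Egr2 and Nr4a1 (loadings 0.47, 0.45, 0.26, 0.11 and 0.08) against Fosb, Egr1, Npas4, Egr4 and Arc (-0.42, -0.41, -0.32, -0.17 and -0.14). On that component saline-LPS replicates 1 and 2 (-1.61 and -1.53) stood apart from saline-LPS replicates 3 and 4 (1.56 and 1.58). Gabra6 was at 0 and 0.0375 CPM in the first pair and at 70.4 and 19.5 CPM in the second. LPS-LPS replicates 1 to 4 were at -0.85, -0.98, 0.86 and 0.97, with Gabra6 at 2.51, 0.0659, 17.1 and 30.2 CPM. LPS-saline replicates 1 to 4 were at 0.19, -0.44, -0.20 and 0.45, with Gabra6 at 0.0678, 0.104, 17.0 and 52.7 CPM. Saline-saline replicates 1 to 4 were at -0.018, -0.63, 1.14 and -0.49, with Gabra6 at 0.134, 0.0597, 0.277 and 44.4 CPM. A relation of this component to Gabra6 was not tested. Npas4 was the loosest member: its highest r with any of the others was 0.70, with Arc (adjusted permutation p = 0.0589), and its lowest was 0.38, with Dusp1 (adjusted permutation p = 0.264). None of its 9 pairs passed. Egr1 and Fosb correlated more with each other (r = 0.86, adjusted permutation p = 0.00478) than either did with Fos (r = 0.45 and 0.42) or Dusp1 (r = 0.40 and 0.43), a difference given here as values without a test of its own.

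**Figure D4:**
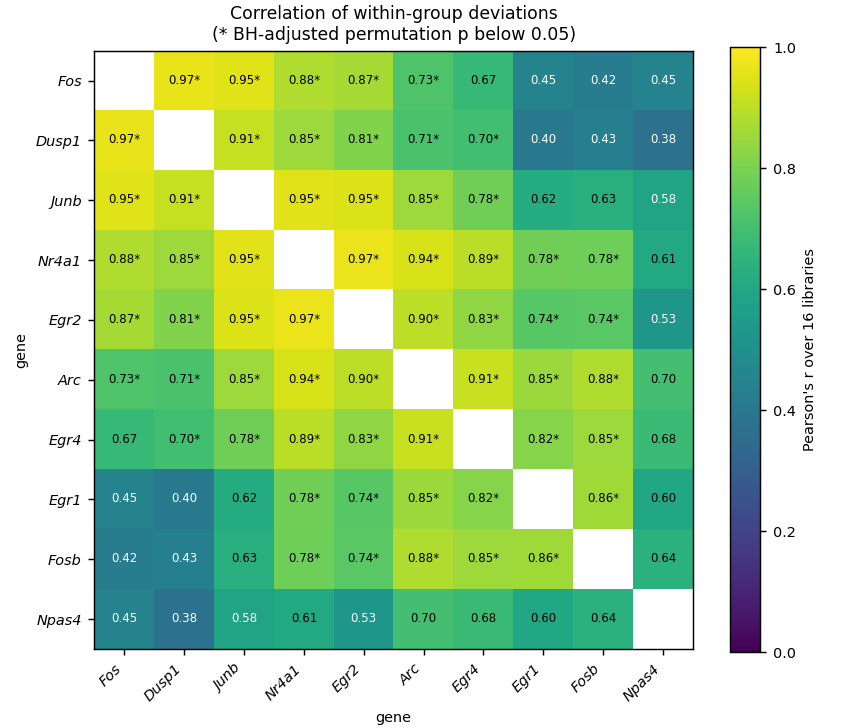
Pearson's r between the within-group deviations of each pair of the 10 genes over 16 libraries, as a colour and a number, with an asterisk where the adjusted permutation p was below 0.05. Fos, Dusp1, Junb, Nr4a1 and Egr2 have r from 0.81 to 0.97 with one another, and Npas4 has no asterisk. Arc and Egr4 reach 0.94 and 0.89 with Nr4a1 but 0.73 and 0.67 with Fos.

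Some of the 10 genes differed more than others between the libraries low in Gabra6 and the rest. Egr1 had a median of 373 CPM (354 to 434) in the 8 libraries low in Gabra6 and 285 CPM (244 to 357) in the other 8, and Arc had medians of 277 and 182 CPM. Fos had medians of 41.2 and 39.3 CPM in the same sets, with ranges that overlapped widely. Because the libraries differed widely on this measure, correlations were taken within each set of 8. LPS-LPS replicate 1 belonged to the second set but had an intermediate marker mean of 3.20 (log2 CPM). The first set reached at most 2.68, and the rest of the second had at least 4.09. Both measures were deviations from the means of the whole groups of 4, so differences between the 2 sets can enter these values. The exact permutations also moved values between groups. In the 8 libraries with Gabra6 at 1 CPM or more, r with the mean level of the cerebellar granule markers was -0.86 for Egr1 (rho = -0.81, exact permutation p = 0.00613) and -0.85 for Fosb (rho = -0.79, exact permutation p = 0.00871). Adjusted over the 20 relations computed, both gave 0.0871 and did not pass, and without the 2 farthest libraries r was -0.54 for Egr1 and -0.64 for Fosb. Fos and Dusp1 had r of -0.28 and -0.29 there. In the 8 libraries low in Gabra6 the values were -0.26 for Egr1, -0.19 for Fosb, 0.59 for Fos and 0.53 for Dusp1, and none passed.

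**Figure D5:**
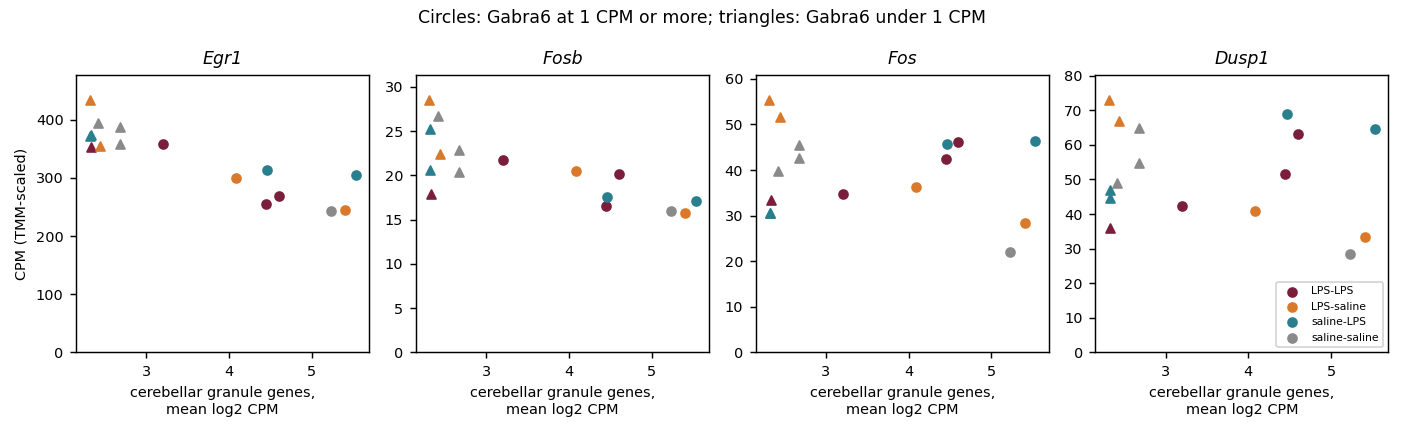
CPM of Egr1, Fosb, Fos and Dusp1 (y axes, from 0) against the mean log2 CPM of the cerebellar granule markers (x axis) in 16 libraries, coloured by group, with triangles for libraries with Gabra6 under 1 CPM. Egr1 lies at 354 to 434 CPM in the triangles and 244 to 357 CPM in the circles, while the Fos and Dusp1 ranges overlap.

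Fos, Arc and Dusp1 were also set against 18 other list means and the log10 of the library's gene total, 57 relations in all, and none passed after adjustment. The closest was Arc with the mean of 50 other rapid immediate early genes (r = 0.86, rho = 0.81, adjusted permutation p = 0.0918; r = 0.76 without the 2 farthest libraries, 0.71 in the 8 libraries low in Gabra6 and 0.85 in the other 8). Fos with 25 delayed activity-regulated genes had the opposite sign (r = -0.68, rho = -0.73, adjusted permutation p = 0.134; -0.63 without the 2 farthest, -0.82 and -0.70 in the 2 sets). Arc with the cerebellar granule markers had r = -0.76 (rho = -0.59, adjusted permutation p = 0.134). That r was -0.76 without the 2 farthest libraries, 0.17 in the 8 libraries low in Gabra6 and -0.64 in the other 8. With the library's gene total, r was 0.58 for Fos, 0.57 for Arc and 0.55 for Dusp1 (adjusted permutation p of 0.361, 0.455 and 0.388). Without the 2 farthest libraries these were 0.35, 0.21 and 0.29. Glucocorticoid-responsive genes and heat shock genes had r of -0.11 and -0.23 with Fos and of -0.07 and -0.25 with Dusp1 (lowest adjusted permutation p of the 4 values 0.715).

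Outside the 10, the genes whose deviations most resembled the mean of the 10 over 16 libraries included Arl4d (r = 0.95), Erf (0.94), Sik1 (0.93), Trib1 (0.92), Adrb1 (0.86), Neurl1b (0.86), Usb1 (0.84), Pycr1 (0.83) and Repin1 (0.83), out of 13793 named genes with a mean of at least 1 CPM. Arl4d, Sik1 and Trib1 were among the 50 other rapid immediate early genes listed for this work. The genes most like each member were ranked on the same deviations as the order among the 10, so they are no separate evidence for it. Arl4d and Erf were among the 3 genes most like Egr2, Nr4a1 and Arc. Fos was most like Ier2 (r = 0.90), Tgm3 (0.89) and Ccn1 (0.88), and Dusp1 was most like the same 3, with Ccn1 at 0.94. Ier2 and Ccn1 are rapid serum-response genes. Egr1 was most like Chrm4 (r = 0.96), a muscarinic receptor of striatal and cortical neurons, Ptgfrn (0.95) and Syna (0.93), and Npas4 was most like Dll1 (0.90), Lrrc41 (0.89) and Ttc7 (0.88). Among 18874 other tested genes ranked by likeness to Nr4a1, the other 9 members had a median rank of 9, and 8 of the 9 were in the first 189, or 1%, whereas for Npas4 the median rank was 970 and 0 of the 9 were in the first 189. These are descriptions over 16 libraries that also differed in depth and in cerebellar and pituitary transcripts.

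The wider pathway was described by lists. Of the 50 other rapid immediate early genes, 1 rose and 3 fell with prenatal LPS averaged over pubertal treatment, beside 4.9% higher and 2.92% lower among all tested genes. The list thus had more falls than rises, unlike all tested genes, but the calls were few and this difference was not tested. The list's median log2 fold change was -0.06. Jund, a constitutively expressed AP-1 subunit, averaged 28.2 ± 2.61 CPM with prenatal LPS and 24.2 ± 1.57 CPM with prenatal saline (SD, n = 8 each; log2 fold change 0.22, adjusted p = 0.0140 by edgeR), but the call was lost with the GC and length correction (adjusted p = 0.723). Rasd1, a small GTPase induced by dexamethasone, averaged 11.6 ± 0.879 CPM with prenatal LPS and 14.7 ± 2.43 CPM with prenatal saline (SD, n = 8 each; -0.34, adjusted p = 0.0155 by edgeR). Klf4 fell by 0.42 (log2, adjusted p = 0.0241 by edgeR) and Tiparp by 0.26 (log2, adjusted p = 0.0315 by edgeR), and of 22 alternative fits 3 and 9 lost these calls. For Klf4 these left out LPS-LPS replicate 3, LPS-saline replicate 1 or saline-saline replicate 2. For Tiparp they were the GC and length correction and the fits without LPS-LPS 1 or 3, LPS-saline 1 or 4, saline-LPS 3, or saline-saline 1, 2 or 3. In LPS-LPS against saline-saline brains Jund was higher and Rasd1 lower (0.35 and -0.45, adjusted p = 0.00854 and 0.0240 by edgeR), the 2 calls among the 50, beside 4.27% higher and 2.29% lower among all tested genes. Again the GC and length correction ended the call of Jund, and leaving out any of 5 libraries ended that of Rasd1: LPS-LPS 1, 3 or 4, or saline-saline 2 or 3.

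Of 25 delayed activity-regulated genes 1 fell with prenatal LPS, Kcna1, a potassium channel subunit, at 65.3 ± 7.36 CPM with prenatal LPS and 84.7 ± 11.0 CPM with prenatal saline (SD, n = 8 each; log2 fold change -0.38, adjusted p = 0.00909 by edgeR). Of 30 genes of the upstream kinases and transcription factors 1 rose, Map2k2, a MAP kinase kinase, at 122 ± 7.06 CPM with prenatal LPS and 107 ± 4.82 CPM with prenatal saline (SD, n = 8 each; 0.19, adjusted p = 0.00953 by edgeR). Both were also called in LPS-LPS against saline-saline brains (-0.47 and 0.23, adjusted p = 0.0201 and 0.0220 by edgeR), with that call lost in 3 and 5 of 22 alternatives. For Kcna1 these left out LPS-LPS replicate 3 or saline-saline replicate 2 or 4, and for Map2k2 they were the GC and length correction and the fits without LPS-LPS 1 or 3 or saline-saline 2 or 4. Among all tested genes 4.9% rose and 2.92% fell with prenatal LPS averaged over pubertal treatment, and 4.27% were higher and 2.29% lower in LPS-LPS against saline-saline brains, so the single calls in these lists do not stand out from the background. Of 12 heat shock genes 0 were called in any comparison.

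Glucocorticoid-responsive genes, which hormone levels set through the glucocorticoid receptor, were set beside the 10 genes. Of 15 tested, 1 rose and 6 fell with prenatal LPS averaged over pubertal treatment, beside 4.9% higher and 2.92% lower among all tested genes. The list median was -0.22 on the log2 scale, beside -0.01 over all tested genes. Tsc22d3, a leucine zipper protein induced by glucocorticoids, averaged 71.7 ± 6.35 CPM with prenatal LPS and 90.4 ± 7.41 CPM with prenatal saline (SD, n = 8 each; -0.33, adjusted p = 0.00171 by edgeR). Plin4 and Sult1a1 fell by 0.66 and 0.35 (adjusted p = 0.0103 and 0.0113 by edgeR), and these 2 calls and that of Tsc22d3 held in all 22 alternative fits. Lcn2, which is also an acute-phase gene, was the gene of the list that rose (log2 fold change 1.18, adjusted p = 0.0145 by edgeR). It averaged 0.737 ± 0.229 CPM with prenatal LPS and 0.329 ± 0.154 CPM with prenatal saline (SD, n = 8 each). DESeq2 gave no adjusted p for Lcn2, so it was not called there. Dusp1, itself inducible by glucocorticoids, was at -0.05 in the same comparison (adjusted p = 0.923 by edgeR). In LPS-LPS against saline-LPS brains 1 of the 15 fell, Tsc22d3 (-0.35, adjusted p = 0.0394 by edgeR), beside 0.609% of all tested genes called in either direction. This call was lost in 11 of 22 alternatives, which were the GC and length correction and the fits without LPS-LPS 1, 3 or 4, LPS-saline 1 or 3, saline-LPS 1, 2 or 3, or saline-saline 1 or 4. In LPS-LPS against saline-saline brains 1 of the 15 was higher, Mt1, and 1 lower, Errfi1, both named after their values were seen, beside 4.27% higher and 2.29% lower among all tested genes. With pubertal LPS 0 genes of any of these lists were called.

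Reads that fall where genes overlap can be set aside as ambiguous or counted for the wrong gene. Junb overlaps Prdx2 and Dusp1 overlaps Ergic1 and the pseudogene Gm8225, in each case on the opposite strand, and the sources used here do not say whether counting used strand. The values of Junb and Dusp1 are uncertain to that extent.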

How the data were processed

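The deposited files hold whole-number counts of reads per gene and library, made by the authors; the submitters' processing notes name STAR 2.5.2b, HTSeq 0.11.2 and the build GRCm38, while annotation release, strand setting and filters are not stated there. Each file listed 49671 gene rows, of which 49412 matched GENCODE M21. HTSeq's summary rows were left out of library sizes; reads with no feature were 8.37 to 11.0% and ambiguous reads 5.11 to 5.48% of each file's total. Gene totals were 25729919 to 38571036.

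Counts were filtered with filterByExpr (18875 genes kept) and scaled by TMM, and CPM uses the scaled totals. A quasi-likelihood model of the 4 group means was fitted to all 16 libraries in edgeR 4.0.16 (R 4.3.3), with 8 contrasts, Benjamini-Hochberg adjustment over 18875 genes and a threshold of 0.05. The 10 genes and the lists were chosen with earlier results of these data known. From the lists, up to 4 called genes each were named by smallest p, and of similar genes the 10 most like the members' mean and 3 most like each member, by Pearson's r, with a mean of at least 1 CPM; a gene among these is not reported here. Correlations used log2 CPM (prior count 2) minus group means, with 100000 permutations within groups, or exact enumeration for 8 libraries. For correlations within a set of 8 the means were still those of the whole groups, and the enumeration did not keep groups apart. Promoter matches were counted in the 250 bases before the start. Groups were taken from the sample titles. Alternatives were RLE scaling, no filter, DESeq2 1.42.0, replicate number as a block, the mean of the cerebellar granule markers as a covariate, offsets for GC content and exonic length, another prior count and each library left out. The model fit and the permutation test were tested on simulated data.

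The groups share replicate numbers. Deviations of same-numbered libraries from their group means correlated at over 0.1 in every pair for LPS-saline with saline-saline (0.115 to 0.578), LPS-LPS with saline-LPS (0.284 to 0.367) and LPS-LPS with LPS-saline (0.156 to 0.363) over 15230 genes with at least 1 CPM, but over all 18875 genes for LPS-LPS with saline-LPS alone (0.162 to 0.211). The limit of 1 CPM was set after the counts of the blocked fit had been seen, so the pairing is uncertain.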

Additional observations from a re-analysis of the deposited data

Results flagged for a closer look

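Within the 40 combinations of a gene and a group, 2 had a library far from the other 3 of its group by Dixon's test at the 95% level. Chance flags about 1 in 20 such groups. Both were the lowest library of the saline-saline group, replicate 4. Egr4 had 48.2 CPM there, against 69.3 to 72.7 CPM in the other 3 libraries. Nr4a1 had 78.2 CPM there, against 173.6 to 193 CPM in the other 3. The same library was also the lowest of its group for Fos, Fosb, Junb, Egr1, Egr2, Arc and Dusp1, without passing that limit, and Npas4 was lower in saline-saline replicate 3.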

How the results depend on the processing

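No member was called in 6 of the 8 comparisons under any alternative run. In prenatal LPS averaged and in LPS-LPS against saline-saline, 1 member, Egr4, was called with the cerebellar granule covariate, and in the first of these 0 to 1 with a library left out (1 without LPS-saline replicate 4). The number of correlated pairs, 29 of 45, was 27 to 36 under the planned settings, 18 to 35 with a library left out (18 without saline-saline replicate 4), and 6 with LPS-saline replicate 4 and saline-saline replicate 4 both left out, an alternative chosen after seeing the data. The replicate block changed no call of a member (0 called in each comparison); its all-gene counts were 409, 326, 2495 and 2185 for prenatal LPS before pubertal saline, before pubertal LPS, averaged, and both exposures, where the fit without it had 34, 115, 1476 and 1238, and 9 of 16 libraries correlated best with one of their own number (7 over all tested genes). With the cerebellar granule covariate some values close to 0 changed sign: for prenatal LPS averaged, Fosb was at 0.0044 and Nr4a1 at 0.0051, and for pubertal LPS averaged, Junb was at 0.023 and Arc at 0.0058 (log2). With the GC and length correction Egr4 was at -0.040 for pubertal LPS averaged and at -0.022 for prenatal LPS before pubertal LPS. With a library left out, log2 values that crossed 0 ranged for prenatal LPS averaged from -0.10 to 0.040 (Fosb), -0.15 to 0.050 (Egr2), -0.19 to 0.049 (Arc), -0.12 to 0.087 (Nr4a1) and -0.15 to 0.033 (Dusp1). For pubertal LPS averaged they ranged from -0.15 to 0.022 (Fos), -0.17 to 0.020 (Junb), -0.14 to 0.0092 (Egr1), -0.046 to 0.10 (Egr4) and -0.080 to 0.11 (Dusp1). For the interaction they ranged from -0.31 to 0.019 (Fos), -0.22 to 0.061 (Fosb), -0.31 to 0.069 (Junb) and -0.21 to 0.062 (Egr1). Egr4 ranged from -0.014 to 0.16 for pubertal LPS after prenatal saline and from -0.20 to 0.096 after prenatal LPS. None of these values passed the threshold, and the cause of the sign changes was not tested. All-gene counts ranged with a library left out from 7 to 391, 22 to 126, 700 to 1645 and 297 to 1981 in the 4 prenatal comparisons named above. In the same 4, the cerebellar covariate gave 476, 460, 2759 and 2286 genes, DESeq2 431, 413, 2271 and 1988, and the GC and length correction 23, 43, 580 and 417, and dropping the filter gave 127 and 178 in the first 2. For pubertal LPS averaged the all-gene count was 0 to 10 with a library left out, 10 without saline-LPS replicate 1.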
